A study of Hordeum vulgare with 2 samples.

Results

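The cysteine peptides of ribosomal proteins, translation factors and tRNA synthetases were examined in germinated barley embryos. A peptide was taken when its deposited protein description in either run held the word ribosomal, elongation factor, initiation factor or tRNA synthetase, in any case. This gave 34 of the 210 distinct peptides of the study: 32 of 199 in the run with a thiol block, 13 of 93 in the control run and 11 in both. They belong to 29 deposited protein entries, 10 of 40S proteins, 13 of 60S proteins and 6 of factors and synthetases. No ribosomal entry was named as chloroplast or mitochondrial.

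Both runs started from embryos of Barke, a malting cultivar of barley, dissected 48 h into germination, and in both the protein extract met iodoacetamide (IAM), which caps free thiols, while it was being made. Portions with and without thioredoxin stood for 1 h. In the blocked run 10 mM IAM followed, so that thiols exposed by thioredoxin were capped, and in the control run this addition was left out. What could still be reduced was then reduced chemically and tagged with isotope-coded affinity tags (ICAT), light in the thioredoxin arm and heavy in the arm that had none, and both arms were mixed and read together by mass spectrometry. The heavy/light ratio of a peptide thus exceeds 1 where the thioredoxin arm carries less tag. Each run is 1 sample of 1 extract mixture, so no test between the runs was possible; errors given as ± are the authors' SD of the ratios averaged for a peptide, within a run, and how many ratios were averaged is not stated in the labels. The source name of the control sample calls it untreated with thioredoxin, against the fuller description followed here.

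A ribosome consists of a small 40S subunit, which reads the messenger RNA, and a large 60S subunit, which joins amino acids into a chain. Initiation factors bring messenger RNA and the first tRNA to the small subunit, elongation factors deliver tRNAs and move the ribosome along, and tRNA synthetases load each tRNA with its amino acid. Germinating embryos rely on stored messenger RNA and ribosomes before new ones are made. Thioredoxin is a small reductase that opens disulfide bonds in other proteins and is active in germinating cereal seeds.

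The entries are named for the database sequence that matched, often from wheat, rice, maize or Arabidopsis; 3 entries are barley Swiss-Prot proteins and 10 are consensus sequences of the barley gene index. The shorter sequences are shown, as deposited, for the peptides at the ends of the ribosomal range, for proteins with several peptides and for factors and synthetases, since these carry the contrasts described next.
L4: AGQGAFGNMCR
L3 (in both runs): SGQESHEACTEFDR
S11 (in both runs): HSNIPAHISPCFR
S11 (blocked run): CPFTGTVAIR
S3-1 (higher): GLCAIAQAESLR
S3-1 (lower): ACYGVLR
S24, maize-like entry: DPNCIFVFK
S24, rice-like entry: DSNCIFVFK
L11: IACYVTIR
P0: LCQLLEEYTK
EF-2: NCDPDGPLMLYVSK
EF-1-gamma 2: ALIAAEYCGVK
eIF4E-1: LNVGADFHCFK
seryl-tRNA synthetase: YAGFSTCFR
glycyl-tRNA synthetase: CTVFPLVK

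With the block, most ribosomal peptides carried less tag in the thioredoxin arm, and the factors and synthetases were divided. Ratios were set against limits of 0.822 to 1.24, the mean ± 2 SD of log2 ratios over all control peptides. Of the 32 peptides 24 lay above the upper limit (75.0%, exact Clopper-Pearson 95% interval 56.6% to 88.5%, which treats peptides as independent and covers counting only), 8 lay within and 0 below. The same share over the whole blocked run was 50.8% of 199 peptides, and 48.9% of the 186 with 1 cysteine, as all 32 have. The median ratio was 1.51 for the 32 peptides and 1.249 over the run. A ratio of 1.5 was passed by 16 of the 32, against 32.7% of the run. A ratio of 2 was passed by 0 of the 32, and by only 5 of 199 over the run. Where the SD was not listed as 0, the whole range of ratio ± SD lay above the limit for 19 of 28, against 41.3% over the run. Dividing the blocked run by 1.22, the median fold by which other shared peptides exceeded their control value, left 16 of 32 above and 64 of 199 over the run (32.2%).

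**Figure D1:**
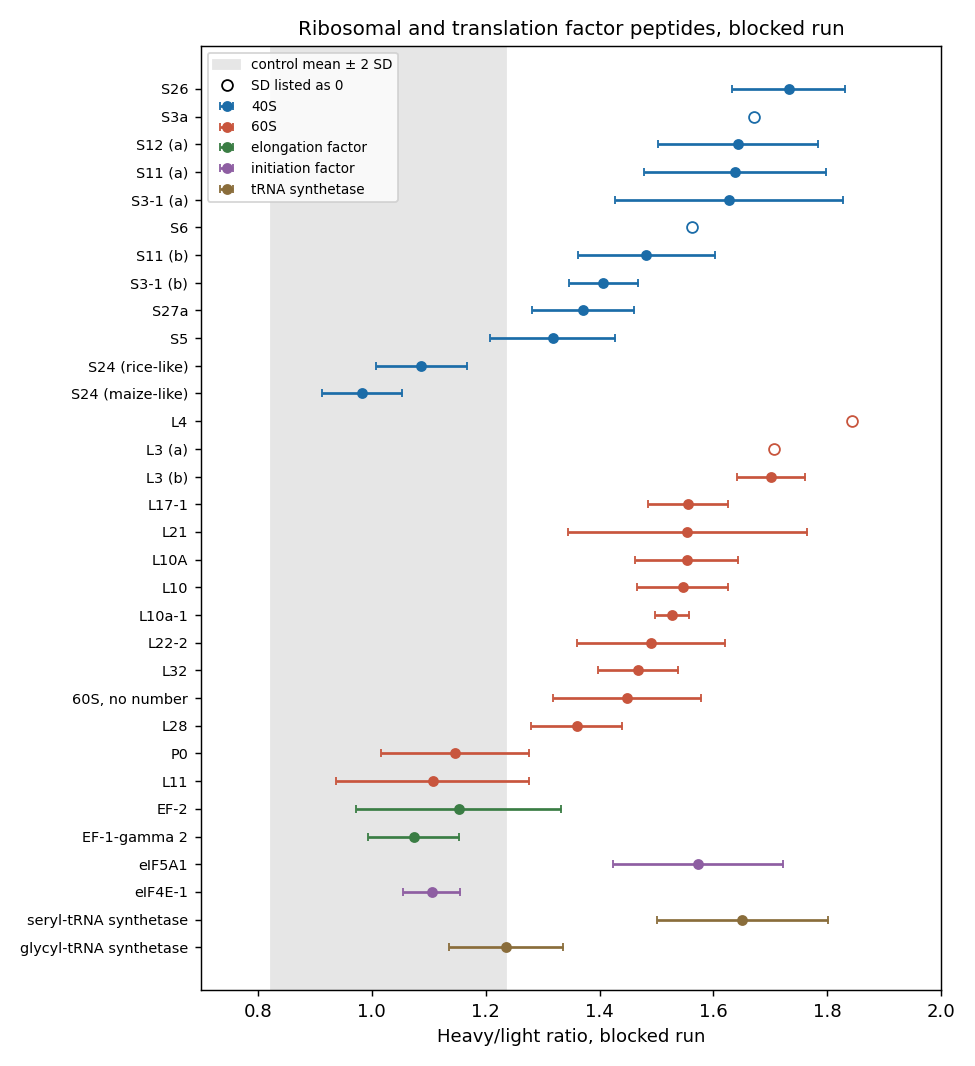
Heavy/light ratio (x axis) of each of the 32 ribosomal, factor and synthetase peptides in the blocked run, with bars of the authors' SD and the control limits shaded. Letters (a) and (b) mark peptides of 1 entry, and open points have an SD listed as 0. The 22 ribosomal peptides outside the shading sit between 1.318 and 1.843, and the 4 inside between 0.983 and 1.147.

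Small-subunit proteins had 10 of 12 peptides above the limit (83.3%, exact Clopper-Pearson interval 51.6% to 97.9%). The share of the whole blocked run, 50.8%, lies just below that interval, which treats peptides as independent. The small-subunit peptides had a median ratio of 1.522 and a range of 0.983 to 1.732. S26, which lies near the exit of the messenger RNA channel, was highest at 1.732 ± 0.1. S3a, a protein on the platform side of the subunit, had 1.671 with an SD listed as 0. S12 had 1.643 ± 0.14. These 3 ratios differed by less than the SD of S26 or S12.

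S6, the ribosomal protein phosphorylated by S6 kinase, had 1.563, again with an SD listed as 0. S27a, made as a fusion with ubiquitin, had 1.371 ± 0.09. S5, which lies by the messenger RNA exit, had 1.318 ± 0.11, the lowest ribosomal ratio above the limit, and its SD range reached below that limit. The spread among the 10 small-subunit peptides above the limit was thus wider than most of their SDs.

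S24, a structural protein of the small subunit, gave the 2 lowest ribosomal ratios. Its maize-like entry had 0.983 ± 0.07 and its rice-like entry 1.087 ± 0.08. The peptides differ by P2S, written as the residue of the maize-like peptide, its position counted from 1 at the amino end, and the residue of the rice-like peptide. Their SD ranges overlap, and both ranges end below the upper limit.

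Large-subunit proteins had 12 of 14 peptides above the limit (85.7%, exact Clopper-Pearson interval 57.2% to 98.2%). The share of the whole blocked run, 50.8%, lies below that interval, which again treats peptides as independent. The large-subunit peptides had a median of 1.537 and a range of 1.107 to 1.843. L4, which helps to line the tunnel through which the new chain leaves, was highest of all the peptides described here at 1.843 (SD listed as 0). It ranked 13 in the run of 199. L3, which reaches towards the peptidyl transferase centre, followed with 1.707 (SD listed as 0) and 1.701 ± 0.06 for its peptides.

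A group of 60S peptides lay close together. L17-1, also at the exit tunnel, had 1.556 ± 0.07. L21 had 1.554 ± 0.21. L10, a late-joining protein near the tRNA sites, had 1.546 ± 0.08.

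L10a, the protein of the mobile L1 stalk, was seen through different peptides of separate entries, at 1.553 ± 0.09 for L10A, a barley consensus sequence named after the wheat protein, and 1.528 ± 0.03 for the Arabidopsis entry L10a-1. All 5 of these ratios differ by less than their SDs. The L10a-1 peptide is a weak 2nd view of the protein, however. It has 5 residues, the least in the run. Its Mascot score, which grades the match of spectrum to sequence, is 21, where the lowest in the run is 20. L22-2 had 1.491 ± 0.13, L32 1.468 ± 0.07, a 60S entry named without a number 1.449 ± 0.13, and L28 1.36 ± 0.08.

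The 60S peptides within the limits were those of P0 and L11. P0, the base of the stalk that recruits translation factors, had 1.147 ± 0.13. L11, which contacts the 5S RNA, had 1.107 ± 0.17. Both SD ranges cross the upper limit. No ribosomal peptide had a ratio between P0 and S5.

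Factors and synthetases had 2 of 6 peptides above the limit (33.3%, exact Clopper-Pearson 95% interval 4.33% to 77.7%), with a median of 1.195. That interval holds the share of the whole blocked run, 50.8%. It also overlaps the intervals of the small-subunit and large-subunit proteins. Initiation factor eIF5A1, which carries hypusine and eases peptide bond formation, had 1.573 ± 0.15, while eIF4E-1, the protein that binds the messenger RNA cap, had 1.105 ± 0.05. Their SD ranges are apart. As background, wheat eIF4E has been crystallised with a disulfide bond; whether the cysteine measured here takes part in it was not examined.

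Seryl-tRNA synthetase had 1.651 ± 0.15 and glycyl-tRNA synthetase 1.236 ± 0.1, with SD ranges apart. The glycyl value lies just under the limit, which is 1.2361 before rounding. Elongation factor EF-2, which moves the ribosome by 1 codon, had 1.153 ± 0.18. EF-1-gamma 2, part of the complex that reloads EF-1A with GTP, had 1.074 ± 0.08. Both elongation factor peptides lay within the limits, and the SD range of EF-2 crosses the upper one. With 2 peptides the exact interval of the share above reaches 84.2%, so that it cannot be set apart from the 50.8% of the run.

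Among other proteins that bind RNA or assist translation, chosen by a list of name patterns, 2 peptides were found in the blocked run. Poly(A)-binding protein, which coats the tail of messenger RNA, had 0.993 ± 0.05 for ELFAEFGTITSCK and lay within the limits. Cold shock protein-1 had 1.562 for CGEEGHISR, above the limit, against 0.835 in the control run, each with an SD listed as 0.

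**Figure D2:**
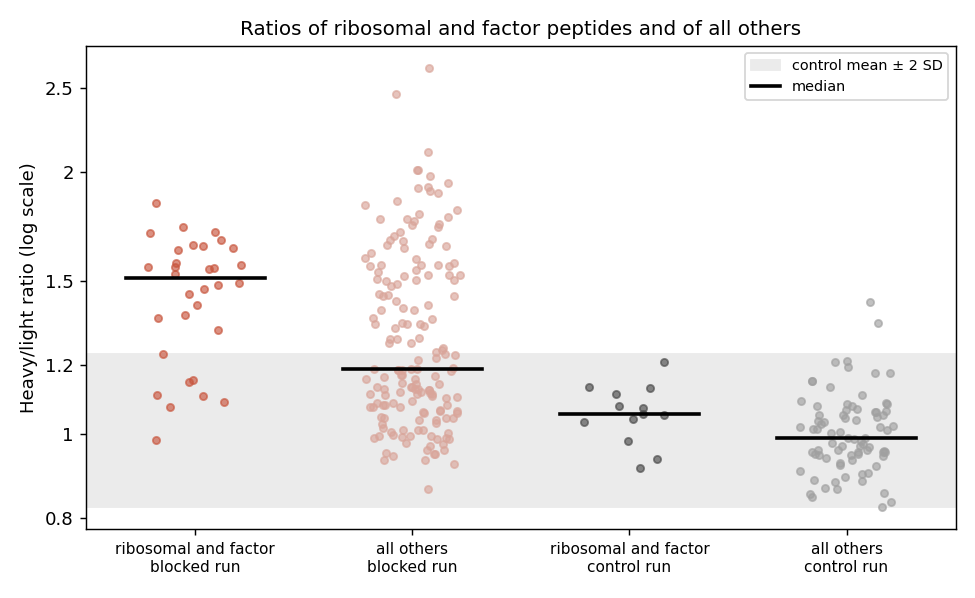
Heavy/light ratio (y axis, log scale) of every peptide, with the ribosomal and factor peptides beside all others, for each run; black lines are medians and the shading marks the control limits. The medians are 1.51 and 1.188 in the blocked run, and 1.055 and 0.99 in the control run.

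In the control run all 13 peptides lay within the limits. A count of 0 among 13 allows a share of up to 23.1% when 3 counts are taken as its upper limit, or 24.7% by the exact Clopper-Pearson 95% interval, and over the whole control run 2.15% lay above, a share kept small because the control set the limits. The 13 ratios ran from 0.913 to 1.211 with a median of 1.055, against 1.011 over the run. Their median was therefore on the same side of the run's median as in the blocked run.

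The 11 peptides in both runs were set against themselves. Every one had the higher ratio in the blocked run, as had 81 of all 82 shared peptides, by a median of 1.47-fold against 1.24-fold over all 82. The authors' SD ranges were apart for 9 of the 10 with an SD above 0 in both runs, against 62.3% of 69 over all shared peptides. For the 9 ribosomal peptides the blocked ratios ran from 1.318 to 1.732 and the control ratios from 0.913 to 1.211, without overlap. For all 11 the ranges overlapped, since the blocked ratios started at 1.105. Over all 82 shared peptides they also overlapped, at 0.932 to 2.637 in the blocked run and 0.824 to 1.418 in the control run.

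**Figure D3:**
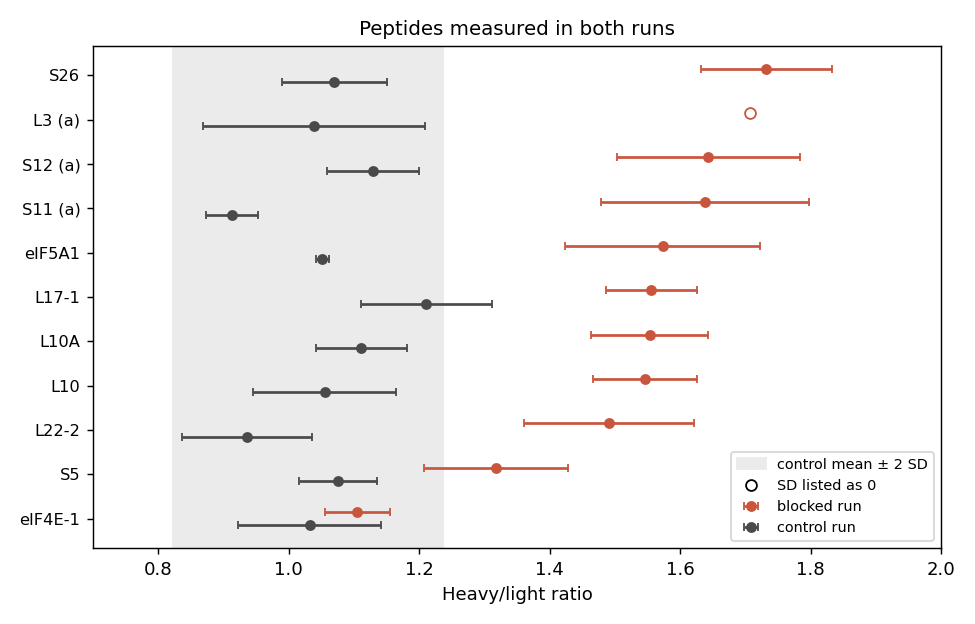
Heavy/light ratio (x axis) of the 11 peptides found in both runs, the blocked run above the control run in each row, with bars of the authors' SD, open points for an SD listed as 0 and the control limits shaded. The bars meet for eIF4E-1 only, at 1.105 ± 0.05 and 1.032 ± 0.11.

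S11, a protein of the 40S body, had 1.638 ± 0.16 in the blocked run, against 0.913 ± 0.04 in the control run. L3 had 1.707 (SD listed as 0) in the blocked run, against 1.039 ± 0.17 in the control run. S26 had 1.732 ± 0.1 in the blocked run, against 1.07 ± 0.08 in the control run. These were the widest gaps, at 1.79-fold, 1.64-fold and 1.62-fold.

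L22-2 followed at 1.59-fold, with 1.491 ± 0.13 in the blocked run, against 0.936 ± 0.1 in the control run. eIF5A1 had 1.573 ± 0.15 in the blocked run, against 1.051 ± 0.01 in the control run, and L10 had 1.546 ± 0.08 in the blocked run, against 1.055 ± 0.11 in the control run. S12 had 1.643 ± 0.14 in the blocked run, against 1.129 ± 0.07 in the control run. All 4 gaps are wider than both SDs together.

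L10A had 1.553 ± 0.09 in the blocked run, against 1.111 ± 0.07 in the control run, or 1.40-fold. L17-1 had 1.556 ± 0.07 in the blocked run, against 1.211 ± 0.1 in the control run, the highest control ratio of the 13, or 1.28-fold. S5 had 1.318 ± 0.11 in the blocked run, against 1.075 ± 0.06 in the control run, or 1.23-fold. The smallest gap was that of eIF4E-1, 1.07-fold, where the ranges overlap. The peptides with blocked ratios near 1.55 thus had control ratios that were spread from L10 to L17-1.

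As apparent loss of tag in the thioredoxin arm, 100 × (1 − light/heavy), the 11 peptides had a median of 35.7% in the blocked run, against 5.21% in the control run. S26 lost 42.3% in the blocked run against 6.54% in the control run, and L17-1 lost 35.7% against 17.4%. Over all 82 shared peptides the medians were 21.2% in the blocked run, against 1.33% in the control run.

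In the blocked run 3 entries had more than 1 peptide. The S11 peptides had 1.638 ± 0.16 and 1.482 ± 0.12, 1.11-fold apart. Those of S3-1, a protein at the messenger RNA entry, had 1.628 ± 0.2 and 1.407 ± 0.06, 1.16-fold apart. In both proteins the SD ranges overlap. The L3 peptides had 1.707, with an SD listed as 0, and 1.701 ± 0.06, so that the first lies within the SD range of the second. The peptide with 1.701 has a Mascot score of 20, the lowest in the run. Whether peptides of the same protein lie closer together than those of different proteins was not tested. Without the block, a further L3 peptide, VACIGAWHPAR, had 0.981 ± 0.02, and a further S12 peptide with 2 cysteines had 1.133 ± 0.06, within an SD of the 1.129 of the other S12 peptide. These last peptides have no value in the blocked run.

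Each of the 32 blocked peptides has 1 cysteine, so none could hold a CxxC pair, in which 2 residues separate 2 cysteines. Over the run 1 of 199 peptides held such a pair. The 32 peptides were 5 to 18 residues long with a median of 11, against 5 to 28 and a median of 12 over the run. Their Mascot scores, which grade the match of spectrum to sequence, ran from 20 to 56 with a median of 41, as over the run, where they reached 118.

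The ratio went with the tag form of the identified spectrum. Of the 21 peptides identified in heavy form 20 lay above the limit, with a median ratio of 1.553, and of the 11 identified in light form 4 did, with a median of 1.153. Over the whole blocked run 62.2% of 119 heavy-form and 33.8% of 80 light-form peptides lay above. The exception among the heavy forms was eIF4E-1, and the light forms above the limit were both L3 peptides, L17-1 and the lower S3-1 peptide. Per the labels, the instrument chose the most intense ions for sequencing. Whether form and ratio are linked through this choice was not tested. In the control run the 8 heavy-form peptides had a median of 1.053 and the 5 light-form peptides 1.07.

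**Figure D4:**
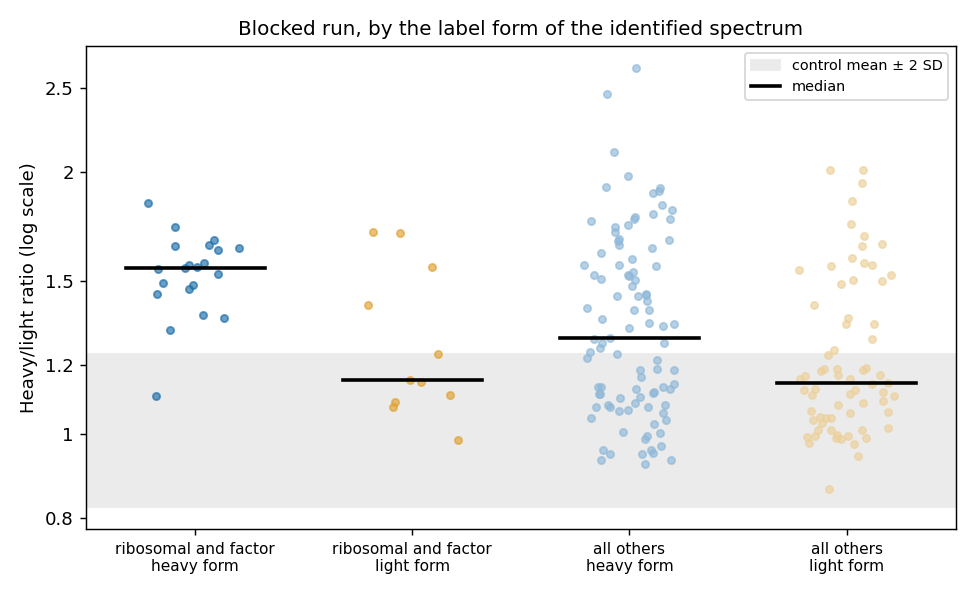
Heavy/light ratio (y axis, log scale) of each peptide of the blocked run, divided by the tag form in which it was identified, for ribosomal and factor peptides and for all others; black lines are medians and the shading marks the control limits. Medians are 1.553 for heavy and 1.153 for light forms of ribosomal and factor peptides, and 1.288 and 1.145 for the others.

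Of 6 name patterns of embryo proteins 4 were found in the blocked run, among them embryo globulin and the peroxiredoxin PER1, and 2 in the control run. Of 7 patterns of starchy endosperm or aleurone proteins 4 were found in the blocked run, among them hordein and beta-amylase, and 1 in the control run. With the block, 4 of 6 embryo marker peptides exceeded the limit, and 4 of 5 of the other tissues, against 50.8% over the run. Whether each pattern is particular to its tissue, and from which tissue the ribosomal peptides came, was not tested.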

How the data were processed

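Peptides were measured in 2 samples, 1 blocked and 1 control, grouped by their titles. Per the labels, the authors used Analyst QS 2.0 with Mascot script 1.6b20 for peak lists and searched them with Mascot against green plant Swiss-Prot 54.6, a public non-redundant protein collection and the barley gene index HvGI 9.0. MSQuant 1.4.3a12 gave the deposited ratio, heavy over light. The authors' SD has the same ratio unit, and no label states any centring. Scores are the authors' deposited Mascot scores, from 20 upwards. Charge was not used.

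Here the tables were joined on peptide sequence, and ratios were taken to log2 (Python 3.11.15, pandas 2.3.3, scipy 1.17.1). Control limits (mean ± 2 SD) used all 93 control peptides and were checked on simulated data. The simulated shift was to a ratio of 2, which no ribosomal or factor peptide reached, so smaller shifts were not checked. With 1 sample per group no p-value was computed, peptides are not replicates, and depth is unknown because spectra per ratio are not given. Every matching protein entry is named, and values are given for each. Members, lists and limits were chosen with earlier results of these data known. Genome positions were not used here. Alternatives were other limits, filters and an offset.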

Additional observations from a re-analysis of the deposited data

How the results depend on the processing

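Of 59 alternatives 49 kept a count within 1.5 times its reported size or a value within a median SD, and 10 did not. The shared difference kept its sign in each, while 1 class median passed from above to below 1, that of factors and synthetases under an offset. In place of 24 peptides, 22 exceeded limits of 3 SD, 25 exceeded limits from a scaled median absolute deviation or from other control peptides only, 20 were above the highest control peptide, 16 above a ratio of 1.5 and 0 above a ratio of 2. The count was 13 of 17 with a score of at least 40, 10 of 11 for peptides in both runs and 21 of 29 entries with 1 value per entry, where fewer values enter by construction. Over the whole blocked run 65 of 199 peptides exceeded 1.5 and 5 exceeded 2, and 42 of all 82 shared peptides were above the limit. For the other limits, the score filter and the count per entry, no share over the run is given here. Those member counts alone do not show whether the contrast with the run is kept. Choices made after seeing the data gave 4 of 11 light forms, 20 of 21 heavy forms and 19 of 28 for whole SD ranges. Dividing by the 1.22-fold offset gave medians of 1.25 for 40S, 1.26 for 60S, 0.982 for factors and synthetases (1.195 as deposited) and 1.24 for all 32, a shared log2 difference of 0.27 in place of 0.55, and 16 peptides above. That offset comes from peptides that themselves include ratios above the limit. With a score of at least 40 in both runs 3 of 4 shared SD ranges were apart. The control count stayed at 0 under each of its alternatives. For most no other count was possible. With 0 of 13 above the main limit, a higher limit, a filter to fewer peptides or a mean per entry can only give 0. The limits from a scaled median absolute deviation and from other control peptides, at 1.21 and 1.23, were lower than the main one. Only these could have given more. The alternatives that could only give 0 are among the 49 that kept their result. So is the filter for 1 cysteine, which all 32 blocked peptides pass. The total of 49 therefore does not measure how firm the results are. No paired analysis was possible because each run is 1 sample. Precision is limited by 1 sample per run and by the unknown number of spectra per ratio.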
